A study of Homo sapiens with 48 samples.

Results

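The 39 genes described here are type I interferon-stimulated genes, taken by symbol from a list of genes that interferon alpha and beta are known to raise, and all 39 were found among the 35535 genes of a count table from 8 human bladder cancer cell lines. Membership goes by gene name, and the set was drawn up with earlier results of these data known. RNA sequencing was done on TCCSUP, VMCUB, SW780, 639V, HT1376, KU1919, T24 and HT1197 cells that had either 250 nM of CPI-0209, which blocks the histone methyltransferase EZH2, or the vehicle DMSO for 4 days. Every line had 3 CPI-0209 and 3 DMSO libraries, so that 48 libraries fell into 16 groups. Each line is a single established line grown in the medium given for it, so differences between lines cannot be told apart from differences between tumours of origin or between media. Nothing in the labels says that the 3 libraries of a group came from separate cultures, so p-values speak only to the spread among these libraries, and that spread may be technical.

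Library totals ranged from 26481418 to 50916911 counts. Levels are CPM, read counts brought to a common library size by TMM scaling over the 48 libraries, and a change is the log2 of the CPI-0209 over the DMSO level with its SE, fitted to the 6 libraries of a line. A gene is called higher or lower where edgeR's quasi-likelihood test gave a Benjamini-Hochberg adjusted p, taken over all genes tested in that line, under 0.05. CPI-0209 replicate 1 of KU1919 and CPI-0209 replicate 3 of T24 stood apart from the other libraries of their groups, with mean correlations of log2(CPM + 1) of 0.990 and 0.993. The DMSO group of VMCUB was loose as well, with replicate 2 at 0.994, and results in these 3 lines are given with and without these libraries. The keratin gene KRT18, an epithelial marker, was at 622 CPM or more in the DMSO libraries of every line. The epithelial adhesion genes EPCAM and CDH1 were low in T24 (6.21 and 3.68 CPM) and 639V (0.936 and 0.731 CPM), and the differentiated urothelium marker UPK3A was at 1.22 CPM in SW780 and at or near 0 in the other 7 lines. In TCCSUP EPCAM was at 3.15 CPM and CDH1 at 54.5 CPM. EZH2 itself stood at 110.0 ± 2.83 CPM with CPI-0209 and 101 ± 2.89 CPM with DMSO in TCCSUP, a change of 0.16 ± 0.049 (edgeR adjusted p = 0.0173), and at 56.5 ± 0.865 CPM with CPI-0209 and 52.0 ± 1.36 CPM with DMSO in HT1376, a change of 0.15 ± 0.048 (edgeR adjusted p = 0.0377) (SD, n = 3 each). It was not called in the other 6 lines.

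Type I interferons are secreted by cells that sense foreign or misplaced nucleic acid. They bind the receptor formed by IFNAR1 and IFNAR2, whose kinases JAK1 and TYK2 phosphorylate STAT2. STAT2 joins IRF9 in the complex ISGF3, which binds the interferon-stimulated response element in the promoters of many such genes. The products block viral entry, replication and budding, and several restrain the pathway itself. Cancer cell lines can hold part of this programme switched on without any virus, and interferon alpha has long been used against bladder cancer. The members fall into the ISGF3 subunits STAT2 and IRF9, the system that attaches the ubiquitin-like protein ISG15 to other proteins, the RNA-binding IFIT family, the OAS family that makes the activator of RNase L, the MX GTPases, membrane proteins that hold back virus particles, a set named IFI, and 12 other effectors.

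The promoters of 5 members are shown because these genes carry the contrasts described further on: IFI44L, IFI27 and MX1 were among the largest rises in TCCSUP, ISG15 was called in opposite directions in TCCSUP and SW780, and OAS1 had the smallest p for a difference of its response between lines. Sequences are RefSeq gene starts on GRCh38.p14, 250 bases before to 50 bases after the start, each 300 bases and all on the plus strand, at chr1:78620198-78620497 for IFI44L, chr14:94110486-94110785 for IFI27, chr21:41420308-41420607 for MX1, chr1:1013247-1013546 for ISG15 and chr12:112906712-112907011 for OAS1. Capitals mark matches to the interferon-stimulated response element, GAAA and GAAA with NN between them, read on either strand, where overlapping matches run together, as they do in ISG15.
IFI44L: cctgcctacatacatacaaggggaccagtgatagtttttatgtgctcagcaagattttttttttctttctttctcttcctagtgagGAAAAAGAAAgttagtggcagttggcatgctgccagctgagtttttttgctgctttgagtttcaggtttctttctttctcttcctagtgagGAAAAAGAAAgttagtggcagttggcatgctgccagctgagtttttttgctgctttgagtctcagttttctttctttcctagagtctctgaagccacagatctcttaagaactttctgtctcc
IFI27: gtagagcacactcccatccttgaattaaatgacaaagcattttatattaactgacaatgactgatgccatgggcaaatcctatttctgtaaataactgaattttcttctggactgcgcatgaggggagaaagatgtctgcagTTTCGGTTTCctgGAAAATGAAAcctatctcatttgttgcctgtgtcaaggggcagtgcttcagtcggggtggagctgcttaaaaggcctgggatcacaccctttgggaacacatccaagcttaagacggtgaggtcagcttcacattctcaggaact
MX1: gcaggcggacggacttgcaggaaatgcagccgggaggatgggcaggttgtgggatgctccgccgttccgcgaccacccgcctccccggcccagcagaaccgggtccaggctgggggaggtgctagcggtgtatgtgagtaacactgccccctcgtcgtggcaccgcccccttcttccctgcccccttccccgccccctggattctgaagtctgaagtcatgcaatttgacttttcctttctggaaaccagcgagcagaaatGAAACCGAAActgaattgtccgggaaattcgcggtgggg
ISG15: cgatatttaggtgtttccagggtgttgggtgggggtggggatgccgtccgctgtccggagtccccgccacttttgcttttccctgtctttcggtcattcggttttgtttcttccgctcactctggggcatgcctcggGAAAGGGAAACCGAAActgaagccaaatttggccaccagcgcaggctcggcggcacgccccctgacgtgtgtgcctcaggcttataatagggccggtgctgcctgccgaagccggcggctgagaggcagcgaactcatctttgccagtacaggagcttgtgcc
OAS1: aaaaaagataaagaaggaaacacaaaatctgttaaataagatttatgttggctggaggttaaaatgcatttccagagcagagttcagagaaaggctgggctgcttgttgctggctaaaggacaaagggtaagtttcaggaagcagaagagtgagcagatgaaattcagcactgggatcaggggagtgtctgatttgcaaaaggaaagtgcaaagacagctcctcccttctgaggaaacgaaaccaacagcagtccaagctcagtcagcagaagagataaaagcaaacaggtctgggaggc
A window was found for 32 of the 39 members, and 21 of those 32 (65.6%) held at least 1 match to the response element, against 1195 of 27305 genes (4.38%) with such windows. In 13 of the 32 members a window held more than 1 match, as those of IFI44L, IFI27 and ISG15 do. Some genes have several windows, and the first with a match is shown where there is one. The MX1 window shown has its match just after the gene start, and the OAS1 window has no match to these letters. Of the other MX1 windows, chr21:41425989-41426288 has 0 matches and chr21:41431800-41432099 has 1. IFI27 has another window, which also holds 2 matches. The gamma activated sequence TTCNNNGAA, known from interferon gamma signalling, had a match in 11 of 32 members (34.4%), against 2560 of 27305 genes (9.38%), and in 5 members the 2 kinds of match overlapped. A match describes the letters of a window and is not evidence of a bound site. USP18, IFIT2, OAS2, OASL, MX2, IFITM2 and TRIM22 had no window in the table.

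With CPI-0209 the members moved differently in each line, and TCCSUP showed by far the most rises. In TCCSUP 32 of 39 members were higher and 3 lower, where 25.7% of all genes tested were higher and 23% lower. In VMCUB 16 of 37 tested members were higher and 1 lower, beside 16.4% and 11% of all genes. In SW780 20 of 39 were higher and 11 lower, beside 30.8% and 30.3% of all genes, and in 639V 9 of 38 were higher and 12 lower, beside 22.1% and 17.1%. The lower share of the 639V members, 31.6%, was thus above that of all genes, while their higher share, 23.7%, lay near it. HT1376 had 8 of 39 higher and 1 lower, beside 23.7% and 16% of all genes. HT1197 had 3 of 39 higher and 4 lower, beside 11.8% and 7.8%, KU1919 had 3 of 35 higher and 3 lower, beside 9.3% and 2.4%, and T24 had 2 of 39 higher and 3 lower, beside 9.37% and 0.93%. In HT1376, HT1197, KU1919 and T24 the share of members that rose did not exceed the share of all genes.

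**Figure D1:**
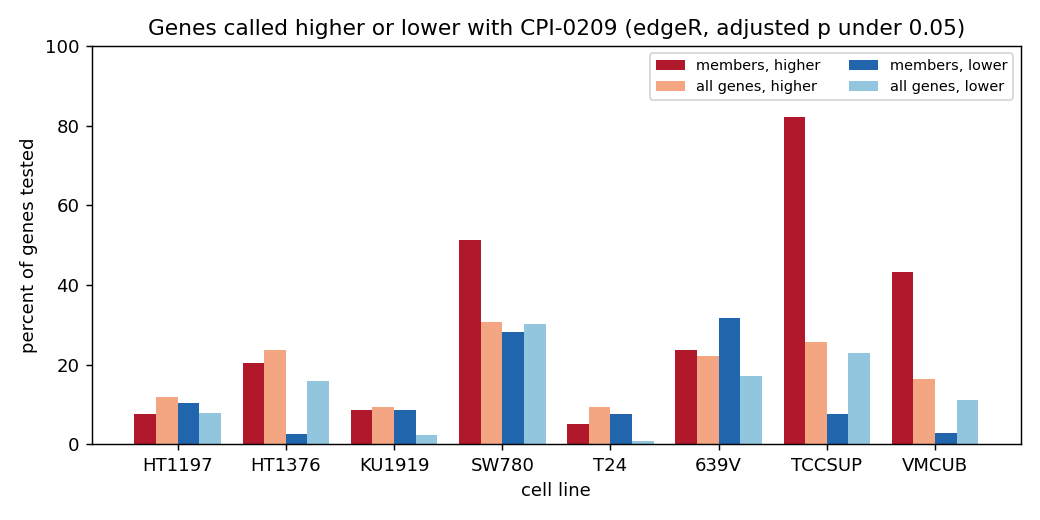
Percent of the tested members and of all tested genes that were called higher (red and orange) or lower (dark and light blue) with CPI-0209 in each cell line, by edgeR at an adjusted p under 0.05. In TCCSUP 82.1% of members were higher, against 25.7% of all genes, and in VMCUB 43.2% against 16.4%.

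The median log2 fold change over the tested members was 0.71 in TCCSUP, 0.44 in VMCUB, 0.24 in HT1376 and 0.17 in SW780. It was near 0 in HT1197 (0.0014), T24 (0.0031), KU1919 (-0.033) and 639V (-0.075), and the median over all genes lay between -0.012 and 0.041 in the 8 lines. A change of at least 2-fold was called for 13 members in TCCSUP, 6 in VMCUB, 3 in SW780 and 1 each in KU1919, T24 and 639V, all higher, and for 1 lower member each in SW780 and 639V. The share of all genes at this 2-fold cut was not counted, so these numbers describe the members only. Scaling by library totals alone moved the median of all genes to 0.22 in SW780 and 0.13 in VMCUB. It also moved the share of higher genes among all called genes, which was 75.6% with library totals and 60.3% with TMM in HT1197, 75.0% and 50.5% in SW780, 71.9% and 56.4% in 639V, and 79.8% and 59.9% in VMCUB.

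Whether all 3 CPI-0209 libraries of a line lay on one side of all 3 DMSO libraries does not use the test. In TCCSUP all 3 lay above for 32 members and below for 4, where 27.3% and 32% of all genes did so. In VMCUB 20 members lay above and 1 below (24.6% and 29.3% of all genes), in SW780 20 and 12 (35.6% and 29.6%), and in 639V 12 and 12 (27.1% and 23%). In HT1376 8 lay above and 1 below (26.3% and 26.4% of all genes), in KU1919 12 and 11 (19.1% and 18.7%), in T24 5 and 9 (17.5% and 11.1%), and in HT1197 3 and 4 (16.9% and 20.1%). TCCSUP had the highest count above among the 8 lines, and VMCUB and HT1376 the lowest below.

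**Figure D2:**
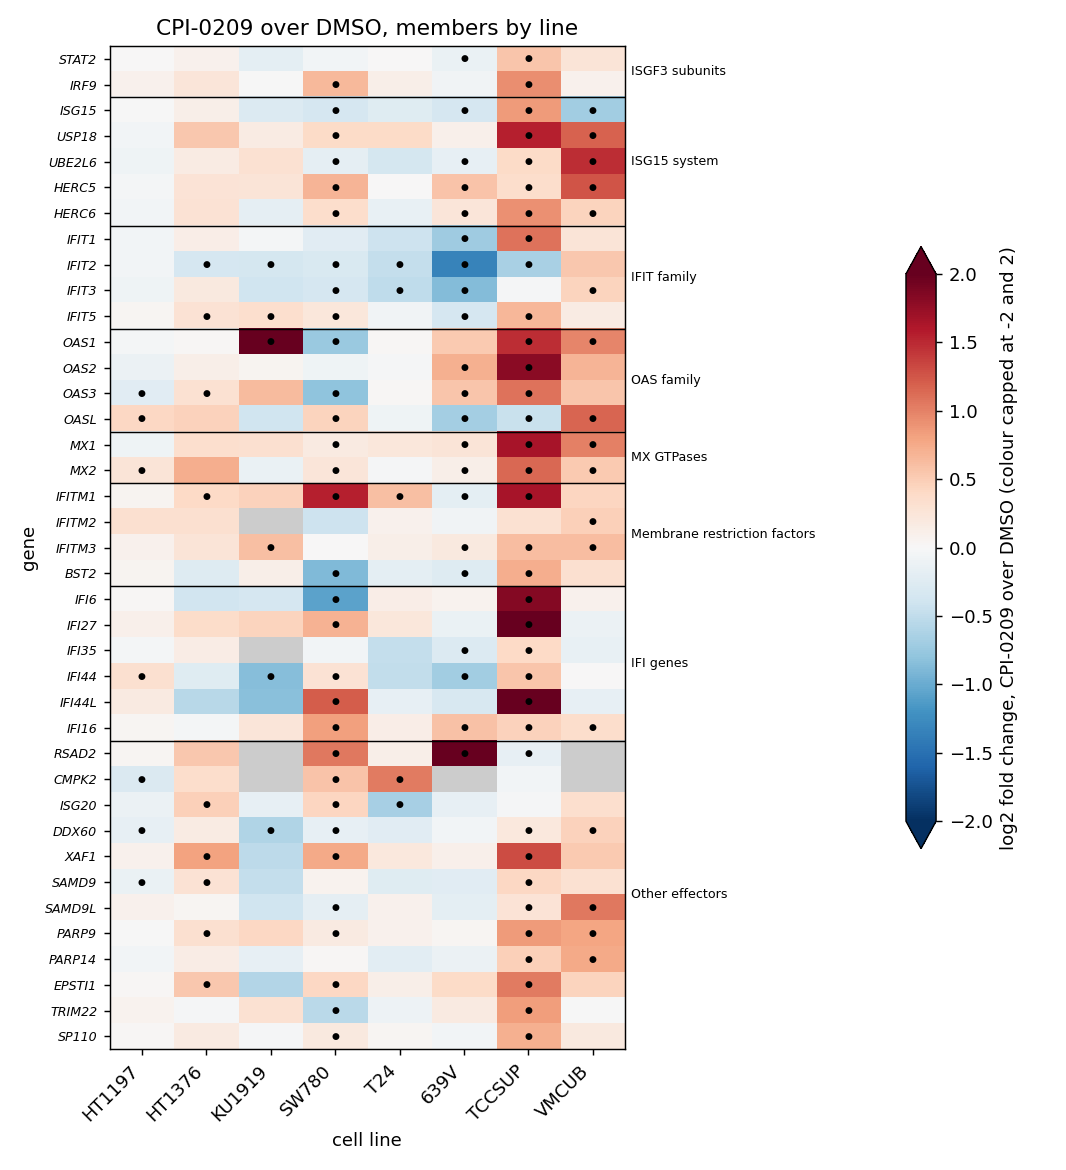
Log2 fold change with CPI-0209 for the 39 members (vertical axis, grouped by role) in the 8 lines (horizontal axis), with colour capped at -2 and 2, a dot where edgeR's adjusted p was under 0.05 and grey where the gene was not tested. The TCCSUP column holds 32 red cells with dots, and the IFIT2 row holds dots on blue in 6 lines.

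Markers of other cell types moved with CPI-0209 in lines with many and with few changed members. The 6 fibroblast markers summed to between 11458 and 11947 CPM with CPI-0209 and between 7753 and 9174 CPM with DMSO in TCCSUP, 18.4 to 20.5 and 9.62 to 9.75 CPM in VMCUB, 113 to 114 and 80.6 to 91.4 CPM in SW780, and 27.2 to 30.6 and 16.9 to 19.5 CPM in 639V. The same sum was 41.3 to 52.6 CPM with CPI-0209 and 25.8 to 27.4 CPM with DMSO in KU1919, 11.03 to 15.4 and 4.60 to 6.10 CPM in T24, 135 to 136 and 106 to 109 CPM in HT1197, and 222 to 247 and 284 to 294 CPM in HT1376. It was higher with CPI-0209 in 7 lines and lower in HT1376, with no overlap in any line. All 6 genes were tested in TCCSUP, where 4 were called higher and 1 lower, in 639V (4 and 1), in HT1197 (4 and 0) and in HT1376 (4 and 2). In VMCUB 4 of 4 tested were called higher, in SW780 3 of 5, and in KU1919 and T24 2 of 3 each, and none was called lower in these lines. Of all genes, 9.3% (KU1919) to 30.8% (SW780) were called higher and 0.93% (T24) to 30.3% (SW780) lower.

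The 13 urothelial and epithelial markers summed to 2235 to 2323 CPM with CPI-0209 and 2519 to 2839 CPM with DMSO in TCCSUP, with 4 of 12 tested higher and 2 lower. Their sum was 2083 to 2380 and 2809 to 3126 CPM in 639V, with 5 of 12 higher and 3 lower, and 10199 to 11589 and 11597 to 12575 CPM in SW780, where 2 of 13 were higher and 10 lower. Of all genes, 25.7% were higher and 23% lower in TCCSUP, 22.1% and 17.1% in 639V, and 30.8% and 30.3% in SW780. The 4 mesenchymal markers summed to 2145 to 2472 CPM with CPI-0209 and 1619 to 2039 CPM with DMSO in TCCSUP, and to 381 to 449 and 217 to 294 CPM in HT1376. This sum was also higher without overlap in the other lines except T24, where the groups overlapped. The 4 endothelial markers summed to 5.17 to 6.09 CPM with CPI-0209 and 8.29 to 8.86 CPM with DMSO in SW780, where KDR had 0 counts, and to 11.4 to 14.4 and 2.94 to 3.60 CPM in HT1376. Elsewhere the endothelial sum was higher in T24, 639V and VMCUB, lower in HT1197 and overlapping in KU1919 and TCCSUP. The 11 leukocyte markers summed to 39.4 to 41.5 CPM with CPI-0209 and 60.3 to 64.9 CPM with DMSO in TCCSUP, with 1 of 4 tested higher and 2 lower. PTPRC was there at 21.5 and 28.1 CPM and CD14 at 17.6 and 33.7 CPM, while CSF1R had a log2 fold change of 1.33. The leukocyte sum was 30.9 to 38.2 and 14.2 to 14.5 CPM in HT1376, where 4 of 7 tested were higher and 1 lower, ITGAM made up most of it at 21.5 and 3.71 CPM, and LYZ had 0 counts. Of all genes, 23.7% were higher and 16% lower in HT1376. MS4A1 had 0 counts in TCCSUP, SW780, 639V and HT1376, and KDR had 0 counts in 639V. These lists are named for cell types, but each library came from a culture of a single cell line. The part of these markers in the results was not tested, and in bulk RNA more cells of a kind and more RNA per cell cannot be told apart.

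In TCCSUP the rise covered members of every role. IFI44L (ENSG00000137959, chromosome 1, 78619922 to 78646145, GRCh38), an interferon-inducible gene whose product restrains some viruses and also dampens the interferon response, stood at 96.2, 113 and 104 CPM in the CPI-0209 libraries, against 13.6, 15.2 and 13.5 CPM in the DMSO libraries. Every CPI-0209 library lay far above every DMSO library, and the change was 2.92 ± 0.077 (edgeR adjusted p = 1.78e-11). IFI27 (ENSG00000165949, chromosome 14, 94104836 to 94116698), which encodes a small mitochondrial protein, stood at 210.1, 215 and 219.8 CPM in the CPI-0209 libraries, against 41.9, 50.7 and 51.9 CPM in the DMSO libraries, a change of 2.19 ± 0.07 (edgeR adjusted p = 9.34e-11). IFI6, whose product acts against cell death, had 322, 337 and 331 CPM in the CPI-0209 libraries, against 114, 82.4 and 88.8 CPM in the DMSO libraries, and rose by 1.83 ± 0.12 (edgeR adjusted p = 8.22e-06). None of these groups overlapped. All 6 IFI genes rose, with smaller changes for IFI44 (0.56 ± 0.06), the DNA sensor gene IFI16 (0.47 ± 0.054) and IFI35 (0.40 ± 0.054).

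The ISGF3 subunits rose together in TCCSUP. STAT2 had 99.1, 102 and 105 CPM in the CPI-0209 libraries, against 71.9, 72.6 and 68.2 CPM in the DMSO libraries, with a change of 0.56 ± 0.051 (edgeR adjusted p = 1.47e-06), and IRF9, the DNA-binding partner, had 81.4, 81.4 and 81.3 CPM in the CPI-0209 libraries, against 37.5, 45.4 and 48.7 CPM in the DMSO libraries, with a change of 0.93 ± 0.076 (edgeR adjusted p = 8.89e-07). The CPI-0209 and DMSO libraries of both genes were fully apart. Exons of IRF9 overlap those of another gene on the same strand, and how the counting split such reads is not known. All 5 genes of the ISG15 system rose as well. ISG15 stood at 319, 309 and 318 CPM in the CPI-0209 libraries, against 196, 153 and 190.4 CPM in the DMSO libraries, so that the 3 CPI-0209 libraries lay close together above a wider DMSO group, and changed by 0.84 ± 0.082 (edgeR adjusted p = 8.12e-06). USP18, the protease that removes ISG15 and also holds back the type I receptor, had 41.8, 45.1 and 43.4 CPM in the CPI-0209 libraries, against 15.4, 14.3 and 15.8 CPM in the DMSO libraries, a rise of 1.55 ± 0.064 (edgeR adjusted p = 6.4e-10). The conjugating enzyme UBE2L6, the ligase HERC5 and its relative HERC6 rose by 0.39 ± 0.06, 0.35 ± 0.068 and 0.91 ± 0.054.

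MX1, a dynamin-like GTPase that traps viral components, stood at 565, 604 and 575 CPM in the CPI-0209 libraries, against 181, 197 and 190.4 CPM in the DMSO libraries, and rose by 1.65 ± 0.056 (edgeR adjusted p = 1.23e-10). Its nuclear envelope relative MX2 rose by 1.15 ± 0.10, with levels of 133 ± 4.25 CPM with CPI-0209 and 61.3 ± 9.90 CPM with DMSO (SD, n = 3 each). Among the OAS genes, OAS2 had 151, 169.8 and 155 CPM in the CPI-0209 libraries, against 43.4, 49.2 and 47.7 CPM in the DMSO libraries, a rise of 1.80 ± 0.064 (edgeR adjusted p = 2.1e-10). OAS1 and OAS3 rose by 1.48 ± 0.073 and 1.09 ± 0.082. The 3 catalytic OAS genes thus moved one way, while OASL, the relative without synthetase activity, fell by 0.44 ± 0.051 (edgeR adjusted p = 1.41e-05), at 229.9, 211 and 226 CPM in the CPI-0209 libraries, against 294, 314 and 319.7 CPM in the DMSO libraries.

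The IFIT family split in TCCSUP. IFIT1, which binds viral RNA caps, rose by 1.08 ± 0.046 and IFIT5 by 0.67 ± 0.054. IFIT2 (ENSG00000119922, chromosome 10, 89283694 to 89309276), a partner of IFIT1 and IFIT3 that can promote cell death, stood at 73.1, 69.8 and 72.5 CPM in the CPI-0209 libraries, against 123, 117 and 108 CPM in the DMSO libraries, and fell by 0.66 ± 0.057 (edgeR adjusted p = 9.7e-07). IFIT3 was at -0.027 (edgeR adjusted p = 0.682) and was not called. All 4 genes lie beside each other on chromosome 10, between 89283694 and 89421001 (GRCh38), and exons of IFIT2 overlap those of LIPA on the other strand. Among the membrane factors, IFITM1, IFITM3 and the virus tether gene BST2 rose by 1.65 ± 0.13, 0.62 ± 0.11 and 0.73 ± 0.057, and IFITM2 stood at 0.30 ± 0.21 (edgeR adjusted p = 0.315). IFITM1 and IFITM2 share exon sequence on the same strand, and how the counting split such reads is not known, so their separate values are uncertain.

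Of the 12 other effectors, 9 rose in TCCSUP, from 0.21 ± 0.067 for the helicase gene DDX60 to 1.31 ± 0.06 for XAF1, whose product favours cell death. EPSTI1 rose by 1.04 ± 0.056, PARP9 and its relative PARP14 by 0.86 ± 0.062 and 0.47 ± 0.054, TRIM22 by 0.83 ± 0.048, the nuclear body gene SP110 by 0.71 ± 0.076, and SAMD9 and SAMD9L by 0.42 ± 0.062 and 0.27 ± 0.067. RSAD2 (ENSG00000134321, chromosome 2, 6865806 to 6898239), which encodes the antiviral enzyme viperin, had 63.6, 59.2 and 62.1 CPM in the CPI-0209 libraries, against 72.4, 70.1 and 69.0 CPM in the DMSO libraries, a change of -0.16 ± 0.05 (edgeR adjusted p = 0.0194). The groups lay just apart, and the call was lost without CPI-0209 replicate 2 (edgeR adjusted p = 0.0715), with library totals (edgeR adjusted p = 0.0586) and in one fit of all 48 libraries (edgeR adjusted p = 0.31). CMPK2, a nucleotide kinase gene whose first exon overlaps that of RSAD2 on the other strand, was at -0.051 and ISG20, an exonuclease gene, at -0.027, and neither was called.

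**Figure D3:**
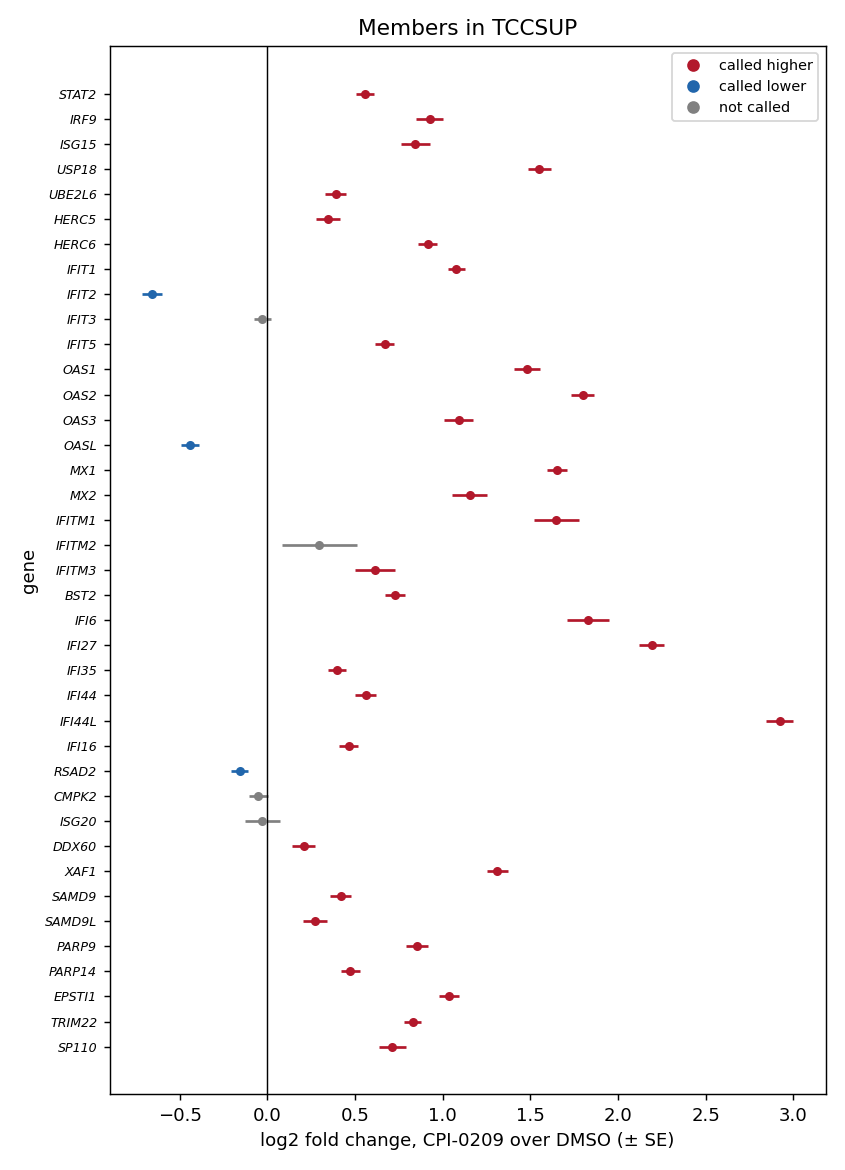
Log2 fold change with CPI-0209 and its SE (horizontal axis, edgeR, 3 libraries a group) for each of the 39 members (vertical axis, ordered by role) in TCCSUP. The 32 red points called higher run up to 2.92 for IFI44L, the 3 blue points called lower are IFIT2, OASL and RSAD2, and 4 grey points were not called.

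The response of TCCSUP was also set against the mean response of the other 7 lines in a fit of all 48 libraries. There 27 members responded more in TCCSUP, where 9.1% of all genes did, and 4 responded less, beside 11.7% of all genes. The difference was 2.99 ± 0.22 (edgeR adjusted p = 1.9e-13) for IFI44L, 2.01 ± 0.15 for IFI6 and 1.94 ± 0.15 for IFI27. Those 4 below were RSAD2, CMPK2, OASL and IFIT2, with RSAD2 at -1.15 ± 0.25 (edgeR adjusted p = 0.000469), and their number was 2 without replicate 1 and 3 without replicate 2 or 3 of every group. In the fits of single lines RSAD2 was at -0.16 in TCCSUP and 4.40 in 639V, and CMPK2 was not called in TCCSUP. With DMSO RSAD2 averaged 0.133, 0.0901 and 0.0556 CPM in 639V, VMCUB and KU1919, and CMPK2 0.00749, 0.0483 and 0.0183 CPM. These low lines entered the mean of the other 7, and their part in the RSAD2 and CMPK2 differences was not tested.

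VMCUB showed a smaller and differently composed rise, led by the enzymes of ISG15 attachment rather than by ISG15. The 16 members called higher were 22 without DMSO replicate 2, the library that stood apart, and 11 without DMSO replicate 1. All genes called higher numbered 2540 with all libraries, 3267 without DMSO replicate 2 and 1580 without DMSO replicate 1. UBE2L6 stood at 16.7, 17.3 and 16.9 CPM in the CPI-0209 libraries, against 6.32, 6.54 and 6.05 CPM in the DMSO libraries, a clear separation and a change of 1.48 ± 0.068 (edgeR adjusted p = 7.98e-05). HERC5, the main ISG15 ligase of human cells, had 9.25, 10.3 and 9.11 CPM in the CPI-0209 libraries, against 3.75, 4.75 and 3.98 CPM in the DMSO libraries, and rose by 1.26 ± 0.11 (edgeR adjusted p = 0.000393). USP18 rose by 1.17 ± 0.15 and HERC6 by 0.44 ± 0.10. ISG15 itself had 35.7, 38.5 and 37.4 CPM in the CPI-0209 libraries, against 58.3, 81.1 and 49.2 CPM in the DMSO libraries, and fell by 0.70 ± 0.16 (edgeR adjusted p = 0.0218). Its DMSO libraries were widely spread, with replicate 2 the highest, and the call was lost without any 1 of the 3 CPI-0209 libraries or DMSO replicate 1 (edgeR adjusted p of 0.0608 to 0.0945). Exons of ISG15 overlap those of a gene on the other strand, and the sources used here do not say whether counting used strand.

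MX1 in VMCUB stood at 7.82, 8.27 and 8.81 CPM in the CPI-0209 libraries, against 4.38, 4.13 and 4.27 CPM in the DMSO libraries, a rise of 1.01 ± 0.091 (edgeR adjusted p = 0.000458) on a level far below that of TCCSUP. SAMD9L, which slows growth and translation, rose by 1.06 ± 0.10 at 9.65 ± 0.277 CPM with CPI-0209 and 4.80 ± 0.587 CPM with DMSO, and PARP9, which works with the ligase DTX3L, by 0.79 ± 0.068 at 16.4 ± 0.427 CPM with CPI-0209 and 9.84 ± 0.280 CPM with DMSO (SD, n = 3 each). Exons of PARP9 overlap those of DTX3L on the other strand. OASL rose by 1.17 ± 0.20 and OAS1 by 0.98 ± 0.19, both from DMSO means under 1 CPM (0.659 CPM for OASL). The OAS1 call, at an edgeR adjusted p of 0.0117, was lost without CPI-0209 replicate 2 (0.0576) or DMSO replicate 1 (0.0502). Neither ISGF3 subunit was called in VMCUB, with 0.27 ± 0.085 for STAT2 and 0.085 ± 0.09 for IRF9, nor were IFI27 (-0.12 ± 0.16), IFI6 (0.084 ± 0.14) or IFI44L (-0.16 ± 0.18). Against the other 7 lines, 11 members responded more in VMCUB, beside 10.8% of all genes, and 2 less, beside 14.4%. UBE2L6 led these with 1.43 ± 0.11 (edgeR adjusted p = 8.47e-13), and the 2 below, ISG15 and IFI27, numbered 1 without replicate 1 and 0 without replicate 2 of every group.

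In SW780 the members went both ways, and so did members of the same family. IFI16 stood at 29.1, 28.2 and 28.3 CPM in the CPI-0209 libraries, against 16.002, 15.8 and 15.8 CPM in the DMSO libraries, rising by 0.82 ± 0.053 (edgeR adjusted p = 1.53e-10). IRF9 rose by 0.65 ± 0.066, with 20.3, 18.5 and 18.5 CPM in the CPI-0209 libraries, against 10.98, 12.7 and 12.1 CPM in the DMSO libraries, while STAT2 was at -0.052 ± 0.043 and not called. XAF1 rose by 0.77 ± 0.082, HERC5 by 0.68 ± 0.10 and USP18 by 0.39 ± 0.076. IFI44L, at 1.66, 1.89 and 1.47 CPM in the CPI-0209 libraries, against 0.722, 0.851 and 0.546 CPM in the DMSO libraries, rose by 1.22 ± 0.20 (edgeR adjusted p = 2.96e-05) from under 1 CPM in DMSO, and IFITM1 (1.55 ± 0.29), RSAD2 (1.06 ± 0.24) and IFI27 (0.70 ± 0.19) likewise rose from under 1 CPM. The largest falls were those of IFI6, with 6.40, 5.77 and 5.39 CPM in the CPI-0209 libraries, against 11.6, 11.6 and 12.8 CPM in the DMSO libraries, by 1.06 ± 0.082 (edgeR adjusted p = 1.9e-09), and of BST2, with 37.8, 37.3 and 39.1 CPM in the CPI-0209 libraries, against 68.8, 65.9 and 73.0 CPM in the DMSO libraries, by 0.89 ± 0.048 (edgeR adjusted p = 1.73e-11). Both genes were fully separated between the groups, in the direction opposite to IFI16.

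The OAS family split in SW780 as well. OAS3 had 115, 116 and 120.1 CPM in the CPI-0209 libraries, against 205, 205 and 192 CPM in the DMSO libraries, a fall of 0.80 ± 0.043 (edgeR adjusted p = 1.32e-11), and OAS1 fell by 0.74 ± 0.065, at 17.5 ± 1.74 CPM with CPI-0209 and 28.7 ± 0.581 CPM with DMSO (SD, n = 3 each). OAS2 was at -0.085 ± 0.094 and not called, and OASL rose by 0.45 ± 0.081. ISG15 fell by 0.34 ± 0.055, IFIT2 by 0.31 ± 0.076, IFIT3 by 0.33 ± 0.053 and TRIM22, a ubiquitin ligase gene that shares exon sequence with OR56B1, by 0.53 ± 0.054. With library totals 24 members were higher and 7 lower in SW780, and IFIT2 was no longer called (edgeR adjusted p = 0.229). All genes went from 5208 higher and 5114 lower with TMM to 8499 and 2839 with library totals. In one fit of all 48 libraries the ISG15 call was lost (edgeR adjusted p = 0.247). Leaving out any 1 of the 6 libraries ended none of the 14 calls that were followed gene by gene in this line.

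639V was the line where the IFIT family fell. IFIT2 stood at 8.42, 7.94 and 7.33 CPM in the CPI-0209 libraries, against 20.2, 19.7 and 19.7 CPM in the DMSO libraries, and fell by 1.33 ± 0.064 (edgeR adjusted p = 1.14e-09). IFIT1 had 13.5, 14.9 and 13.1 CPM in the CPI-0209 libraries, against 22.3, 22.3 and 23.4 CPM in the DMSO libraries, a fall of 0.71 ± 0.06 (edgeR adjusted p = 3.72e-07). IFIT3 fell by 0.87 ± 0.095 and IFIT5 by 0.34 ± 0.05, so that all 4 members of the family were lower. RSAD2 went far in the other direction, at 2.97, 3.17 and 2.42 CPM in the CPI-0209 libraries, against 0.151, 0.112 and 0.134 CPM in the DMSO libraries, with 466 counts in the 3 CPI-0209 libraries and 17 in the 3 DMSO libraries. The change was 4.40 ± 0.23 (edgeR adjusted p = 2.82e-09), from a DMSO level close to 0. Its neighbour CMPK2 was not tested in 639V, with 6 and 1 counts in the same libraries.

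Among the other 639V members, OAS3 had 60.7, 53.7 and 57.2 CPM in the CPI-0209 libraries, against 40.4, 36.4 and 39.3 CPM in the DMSO libraries, a rise of 0.56 ± 0.059 (edgeR adjusted p = 3.57e-06), and IFI16 rose by 0.59 ± 0.069, HERC5 by 0.58 ± 0.10 and HERC6 by 0.25 ± 0.06. OASL fell by 0.67 ± 0.19, BST2 by 0.26 ± 0.051 and IFITM1 by 0.20 ± 0.051. STAT2 fell by 0.13 ± 0.049 (edgeR adjusted p = 0.0477) and ISG15 by 0.33 ± 0.10 (edgeR adjusted p = 0.0271), at 23.98, 29.1 and 23.3 CPM in the CPI-0209 libraries, against 33.7, 34.5 and 27.5 CPM in the DMSO libraries, which overlapped. The STAT2 call was lost without any 1 library but CPI-0209 replicate 3, with a highest edgeR adjusted p of 0.111, and the ISG15 call without CPI-0209 replicate 1 or 3 or DMSO replicate 1 or 2, with a highest of 0.0933. With library totals both also missed the threshold, at 0.236 for STAT2 and 0.0508 for ISG15.

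HT1376 showed modest rises. XAF1 had 31.6, 35.7 and 39.9 CPM in the CPI-0209 libraries, against 24.9, 22.2 and 15.3 CPM in the DMSO libraries, a change of 0.80 ± 0.18 (edgeR adjusted p = 0.0106), and the groups were apart although each was widely spread. EPSTI1, a gene named for epithelial and stromal interaction, rose by 0.54 ± 0.15, ISG20 by 0.48 ± 0.12, IFITM1 by 0.39 ± 0.11 and PARP9 by 0.32 ± 0.09. OAS3, IFIT5 and SAMD9 rose by 0.30 ± 0.095, 0.29 ± 0.094 and 0.29 ± 0.087, and IFIT2, at 22.8, 21.1 and 23.1 CPM in the CPI-0209 libraries, against 27.6, 29.2 and 29.1 CPM in the DMSO libraries, fell by 0.33 ± 0.06 (edgeR adjusted p = 0.00194). MX2 (0.73 ± 0.30) and USP18 (0.54 ± 0.24) did not pass the test. The calls of XAF1 and IFIT2 held without any 1 library, but the count of 8 rises did not, and XAF1 was no longer called without the filter on low counts (edgeR adjusted p = 0.0672). The count was 5 without CPI-0209 replicate 2, 2 without CPI-0209 replicate 3, 15 without DMSO replicate 1 and 4 without DMSO replicate 2 or 3, and the lower members, 1 with all libraries, were 5 without DMSO replicate 3. All genes called higher numbered 3875 with all libraries, 3585 without CPI-0209 replicate 2 and 3328 without CPI-0209 replicate 3. They numbered 4045, 3366 and 3605 without DMSO replicate 1, 2 and 3. All genes called lower numbered 2619 with all libraries and 2502 without DMSO replicate 3.

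KU1919 had a single large change, in OAS1, which makes the oligoadenylates that switch on RNase L. OAS1 (ENSG00000089127, chromosome 12, 112906777 to 112933222) stood at 3.65, 2.82 and 3.27 CPM in the CPI-0209 libraries, against 0.524, 0.414 and 0.429 CPM in the DMSO libraries, with 357 counts in the CPI-0209 libraries and 55 in the DMSO libraries. The rise was 2.81 ± 0.17 (edgeR adjusted p = 0.000145), and OAS2 (0.054 ± 0.35) and OAS3 (0.63 ± 0.22), its neighbours on chromosome 12, did not pass the test. IFITM3 rose by 0.60 ± 0.13 and IFIT5 by 0.34 ± 0.083, while IFI44 fell by 0.86 ± 0.10, at 8.40, 7.70 and 6.70 CPM in the CPI-0209 libraries, against 14.4, 13.9 and 12.8 CPM in the DMSO libraries, DDX60 by 0.60 ± 0.13 and IFIT2 by 0.36 ± 0.087. Of these 6 calls, those of OAS1 and IFI44 held without any 1 library. Without CPI-0209 replicate 1, the library that stood apart, 7 members were higher and 10 lower. All genes went from 1510 higher and 389 lower with all libraries to 3047 and 2375 in that setting. Without DMSO replicate 1, 2 or 3 the member counts were 1 higher and 1 lower, and 1 member was lower without CPI-0209 replicate 2. All genes higher numbered 858, 885 and 971 without DMSO replicate 1, 2 and 3. All genes lower numbered 113, 113 and 116 there, and 214 without CPI-0209 replicate 2. IFITM2, IFI35, RSAD2 and CMPK2 were too low to be tested in KU1919.

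T24 moved little. CMPK2 had 4.13, 3.98 and 4.89 CPM in the CPI-0209 libraries, against 1.95, 2.29 and 2.16 CPM in the DMSO libraries, a rise of 1.03 ± 0.14 (edgeR adjusted p = 0.00367), and IFITM1 rose by 0.60 ± 0.11. IFIT2, at 15.2, 13.9 and 16.1 CPM in the CPI-0209 libraries, against 20.3, 21.3 and 22.1 CPM in the DMSO libraries, fell by 0.48 ± 0.091 (edgeR adjusted p = 0.0155), IFIT3 by 0.50 ± 0.096 and ISG20 by 0.67 ± 0.16. The groups did not overlap for any of these 5 genes, of which CMPK2 alone kept its call without any 1 library. Without CPI-0209 replicate 3, the library that stood apart, 6 members were lower, and without CPI-0209 replicate 1 or 2 or DMSO replicate 3 none was. All genes lower numbered 144 with all libraries, 188 without CPI-0209 replicate 3, and 43, 31 and 124 in the other settings. The 2 members called higher were 1 without CPI-0209 replicate 2 or DMSO replicate 1 or 3. All genes higher numbered 905, 1090 and 1093 there, against 1452 with all libraries.

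HT1197 had the highest levels of many members and small changes. ISG15 stood at 1341, 1146 and 1369 CPM in the CPI-0209 libraries, against 1181, 1344 and 1411 CPM in the DMSO libraries, with overlapping groups and a change of -0.01 ± 0.086 (edgeR adjusted p = 0.957). IFI27 had 2192, 1999.5 and 2157 CPM in the CPI-0209 libraries, against 1849.8, 2039 and 2081 CPM in the DMSO libraries, also overlapping, with 0.11 ± 0.044 (edgeR adjusted p = 0.103), and IFI6 was at 0.024 ± 0.047. OAS3 fell by 0.22 ± 0.034 (edgeR adjusted p = 0.000217), at 646, 638 and 666 CPM in the CPI-0209 libraries, against 755, 751 and 795 CPM in the DMSO libraries, CMPK2 by 0.29 ± 0.071, DDX60 by 0.16 ± 0.035 and SAMD9 by 0.13 ± 0.035. IFI44 rose by 0.32 ± 0.079, MX2 by 0.26 ± 0.073 and OASL by 0.42 ± 0.13. IFI44, OAS3 and DDX60 kept their calls without any 1 library. The 3 rises were 1 without CPI-0209 replicate 3 or DMSO replicate 2 or 3, and the 4 falls were 2 without CPI-0209 replicate 1 or DMSO replicate 1 or 2. All genes higher numbered 1844 with all libraries and 1505, 1408 and 1565 in the settings named for rises. All genes lower numbered 1215 with all libraries and 803, 1027 and 709 in those named for falls. In a fit of all 48 libraries with a common spread, 0 members were called in HT1197, where 1063 of all genes were higher and 199 lower.

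Across the lines, 38 of the 39 members were called higher in at least 1 line, where 50% of all genes were, 22 were lower in at least 1 line (46.7% of all genes), and 21 were higher in one line and lower in another (17.7% of all genes). IFIT2 was the exception that rose in no line: it was lower in 6 of 8 lines, as 0.365% of all genes were in 6 or more, and stood at -0.06 ± 0.11 (edgeR adjusted p = 0.772) in HT1197 and 0.54 ± 0.19 (edgeR adjusted p = 0.0771) in VMCUB. Of its 6 calls, that in KU1919 was lost without any 1 library but CPI-0209 replicate 1, and that in T24 without CPI-0209 replicate 1 or 2 or DMSO replicate 3. IFIT2, RSAD2 and OAS1 are given in SW780, TCCSUP and VMCUB because of values seen in other lines. In VMCUB IFIT2 had 3.34, 3.49 and 2.98 CPM in the CPI-0209 libraries, against 1.87, 3.13 and 2.03 CPM in the DMSO libraries, the lowest level of the 8 lines. MX2 was called higher in 5 lines, and HERC5, HERC6, IFIT5, MX1, IFITM1, IFITM3, IFI16 and PARP9 in 4 each, so that 9 members rose in 4 or more lines, where 12.2% of all genes did.

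**Figure D4:**
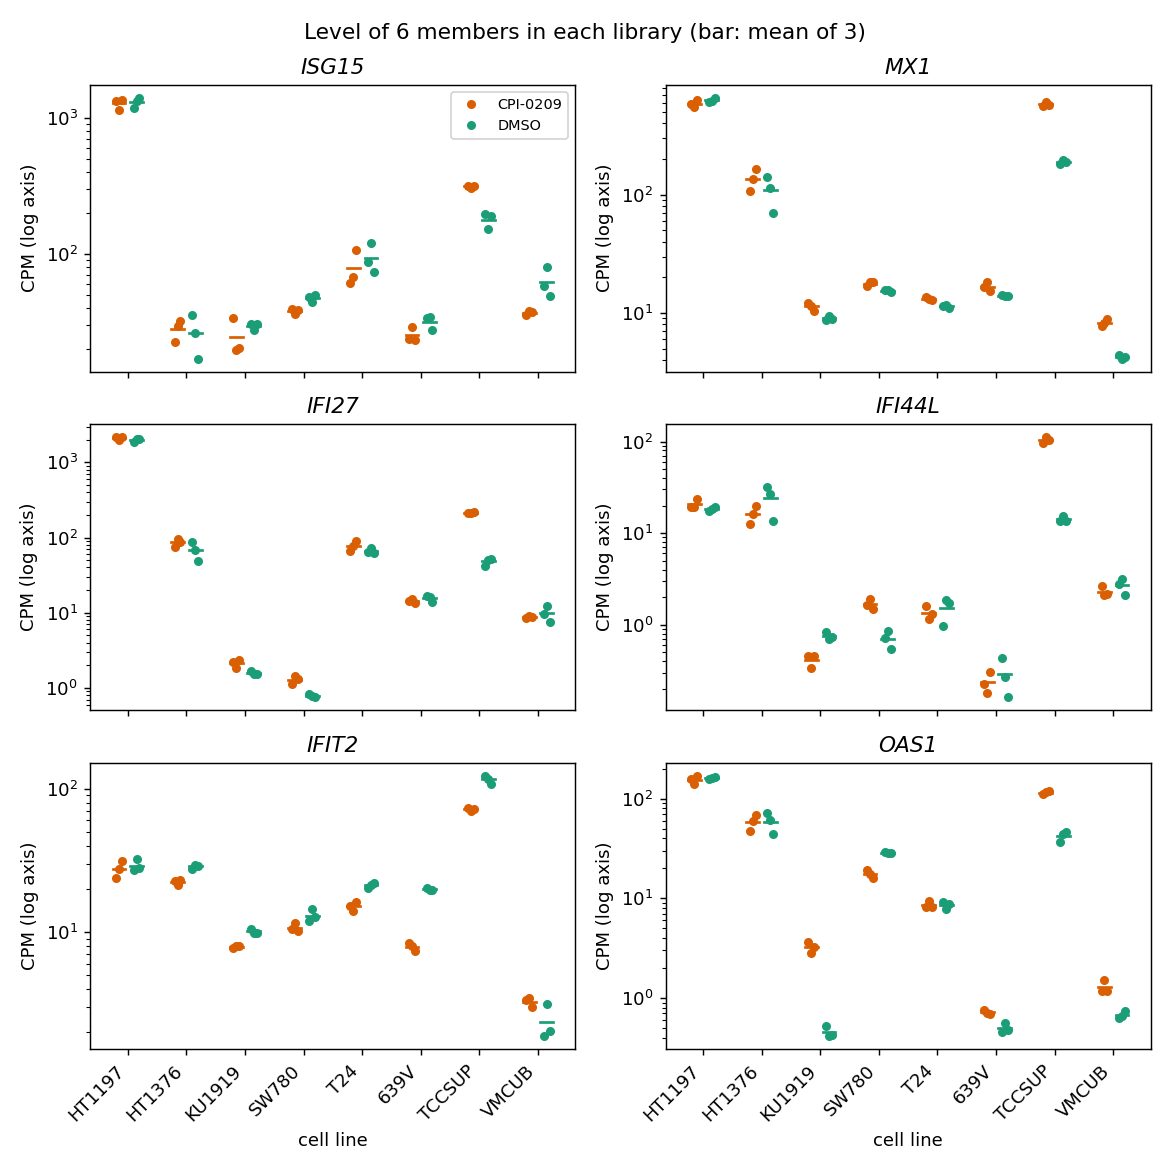
Level in CPM (log axis) of ISG15, MX1, IFI27, IFI44L, IFIT2 and OAS1 in each library of the 8 lines, with CPI-0209 in orange to the left of DMSO in green and a bar at the mean of 3. IFI44L in TCCSUP and OAS1 in KU1919 show the widest gaps, and IFIT2 lies lower with CPI-0209 in 7 lines, with overlapping groups in HT1197 and in VMCUB, where its mean is higher.

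Followed through all 8 lines, the ISGF3 subunits and the best known members were called in few of them. STAT2 was higher in TCCSUP and lower in 639V, and ran from -0.19 in KU1919 to 0.27 in VMCUB in the 6 lines where it was not called. IRF9 was higher in TCCSUP and SW780, and ran from -0.073 in 639V to 0.24 in HT1376 in the other 6. Both subunits were called higher in TCCSUP. ISG15 was higher in TCCSUP and lower in SW780, 639V and VMCUB, and the 4 other lines lay between -0.28 in KU1919 and 0.11 in HT1376. IFI27 was higher in TCCSUP and SW780 and ran from -0.13 in 639V to 0.45 in KU1919 elsewhere, and IFI6 was higher in TCCSUP, lower in SW780 and between -0.38 in HT1376 and 0.14 in T24 elsewhere. USP18 was higher in TCCSUP, VMCUB and SW780, with the other lines from -0.051 in HT1197 to 0.54 in HT1376.

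For a response common to the lines, counts were summed over each group, so that each line gave 1 pair of values. None of the 39 members was called, where 7.31% of all genes were higher and 4.41% lower. An unadjusted edgeR p under 0.05 was found for 9 members, and the share of all genes at that cut was not counted. The median over the members was 0.18, against -0.0057 over all genes. The smallest p was that of IFITM3, which blocks fusion of viruses with endosomes, at 0.29 ± 0.085 (edgeR adjusted p = 0.0544). IFI16 stood at 0.31 ± 0.10 (edgeR adjusted p = 0.0716), PARP9 at 0.31 ± 0.11 (edgeR adjusted p = 0.0793) and USP18 at 0.50 ± 0.17 (edgeR adjusted p = 0.0834). DESeq2 called 6 members higher and 0 lower, library totals 2 higher and 0 lower, and a fit that treats the 48 libraries as independent 21 higher and 2 lower. The share of all genes called in these settings was not counted, so these numbers describe the members only. Without any 1 line 0 members were called.

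The response differed between lines for 38 of 39 members by the F test of the 7 interaction terms, where 58.7% of all genes differed. IFITM2 was the exception, at an edgeR adjusted p of 0.306. The smallest p was that of OAS1 (edgeR adjusted p = 1.76e-15), which ran from 2.81 in KU1919 to -0.74 in SW780. IFI44L ran from 2.92 in TCCSUP to -0.84 in KU1919 (edgeR adjusted p = 8.71e-13), and IFI6 from 1.83 in TCCSUP to -1.06 in SW780 (edgeR adjusted p = 1.42e-12). Each of these 3 genes rose in at least 1 line, and OAS1 and IFI6 fell in SW780, while IFI44L was not called in KU1919 (edgeR adjusted p = 0.0512). UBE2L6 was highest in VMCUB (1.48) and lowest in T24 (-0.36), with an edgeR adjusted p of 2.36e-12, and RSAD2 was highest in 639V (4.40) and lowest in TCCSUP (-0.16), with 1.55e-11. IFI27 was led by TCCSUP (edgeR adjusted p = 3.91e-12), IFI16 by SW780 (edgeR adjusted p = 3.18e-11) and IFIT2 was highest in VMCUB (edgeR adjusted p = 7.16e-11). Set against the other 7 lines, 2 members responded more and 12 less in HT1197, beside 2.82% and 7.11% of all genes, 1 more and 12 less in KU1919 (9.41% and 13.7%), 0 more and 11 less in T24 (4.98% and 6.1%), and 2 more and 11 less in 639V (7.74% and 7.47%). In SW780 7 responded more and 7 less (13.8% and 16.8% of all genes), and in HT1376 2 more and 4 less (11.1% and 8.81%). The lines share these libraries as each other's comparison, and TCCSUP enters the mean of each.

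Most of the ligands that start the pathway were nearly absent. Of 21 interferon genes, 17 were too low to be tested in any line, among them all 13 interferon alpha genes, IFNB1 and IFNG. IFNB1 averaged at most 0.0697 CPM with CPI-0209, in HT1376, and at most 0.0856 CPM with DMSO, in HT1197. IFNE, an interferon of epithelia of the reproductive tract, was tested in 5 lines. Its DMSO level was highest in VMCUB (4.41 ± 0.462 CPM) and 639V (4.39 ± 0.661 CPM) (SD, n = 3 each). In TCCSUP it stood at 2.23, 1.96 and 2.66 CPM in the CPI-0209 libraries, against 1.80, 1.74 and 1.37 CPM in the DMSO libraries, a rise of 0.53 ± 0.18 (edgeR adjusted p = 0.0239), and fell by 0.99 ± 0.13 in 639V (edgeR adjusted p = 4.01e-05). The TCCSUP call was lost without CPI-0209 replicate 1 or 3 or DMSO replicate 3, with a highest edgeR adjusted p of 0.121. The lambda interferon genes IFNL1, IFNL2 and IFNL3, whose products signal through ISGF3 by another receptor, were tested only in HT1197 and were not called there.

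Of 6 receptor genes, 2 were higher and 1 lower in TCCSUP, and 1 higher and 2 lower in SW780, where 25.7% and 23% of all genes were higher and lower in TCCSUP and 30.8% and 30.3% in SW780. IFNAR1 was called in none of the 8 lines, with values from -0.12 in TCCSUP to 0.068 in VMCUB, and IFNAR2 was called in SW780 alone of the 8, where it fell by 0.33 ± 0.066, a call that was lost with library totals (edgeR adjusted p = 0.108). Of 10 kinases and transcription factors, 3 were higher and 3 lower in TCCSUP, 5 higher and 0 lower in HT1376, and 3 higher and 4 lower in SW780, beside the same shares and 23.7% and 16% of all genes in HT1376. IRF7, which amplifies interferon genes, rose by 0.96 ± 0.11 in TCCSUP and 0.66 ± 0.23 in SW780, the second lost without CPI-0209 replicate 1 or 3 or DMSO replicate 1 or 3, with a highest edgeR adjusted p of 0.127. IRF1 rose in KU1919 (0.67 ± 0.08), VMCUB (0.61 ± 0.06) and HT1376 (0.44 ± 0.063) and was not called in TCCSUP (-0.073 ± 0.052). The feedback inhibitor gene SOCS1 rose in HT1376, SW780, 639V and TCCSUP, by 0.76 ± 0.092, 0.97 ± 0.18, 1.10 ± 0.25 and 0.66 ± 0.15, and fell by 0.52 ± 0.15 in VMCUB, a call that was lost without any 1 library but DMSO replicate 3.

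Among the 10 sensors and adaptors, 5 rose and 4 fell in TCCSUP, beside 25.7% and 23% of all genes. TLR3, the endosomal sensor of double-stranded RNA, stood in TCCSUP at 2.86, 3.52 and 3.25 CPM in the CPI-0209 libraries, against 0.391, 0.441 and 0.263 CPM in the DMSO libraries, a rise of 3.16 ± 0.22 (edgeR adjusted p = 9.05e-08). It also rose in VMCUB (1.77 ± 0.17), 639V (0.91 ± 0.13), T24 (0.72 ± 0.16) and SW780 (0.65 ± 0.057), and the T24 call was lost without any 1 library (edgeR adjusted p up to 0.123). CGAS, the DNA sensor, fell in 6 of the 7 lines where it was tested, at -0.75 ± 0.095 in VMCUB, -0.50 ± 0.11 in SW780, -0.47 ± 0.057 in 639V, -0.47 ± 0.081 in KU1919, -0.36 ± 0.066 in TCCSUP and -0.26 ± 0.064 in HT1376, of which the KU1919 call was lost without any 1 DMSO library. Its adaptor STING1 was at -1.498 ± 0.15 in 639V, -0.49 ± 0.05 in SW780, -0.47 ± 0.065 in TCCSUP and -0.36 ± 0.076 in KU1919, all called lower, and rose in HT1376 (0.80 ± 0.12) and HT1197 (0.54 ± 0.15). The KU1919 call was lost without CPI-0209 replicate 2 or any 1 DMSO library, and the HT1197 call without CPI-0209 replicate 3 or DMSO replicate 1. RIGI, a cytosolic RNA sensor, rose by 0.44 ± 0.051 in TCCSUP and the RNA-activated kinase gene EIF2AK2 by 0.59 ± 0.056.

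Of the genes led by interferon gamma, 7 of 12 tested were higher and 0 lower in HT1376, and 7 of 12 higher and 1 lower in TCCSUP, beside the shares of all genes given above. CXCL10, a chemokine for T cells, had in HT1376 23.3, 27.2 and 27.2 CPM in the CPI-0209 libraries, against 1.08, 0.817 and 1.02 CPM in the DMSO libraries, a rise of 4.75 ± 0.12 (edgeR adjusted p = 8.11e-09).  In TCCSUP CXCL10 had 105 counts in the CPI-0209 libraries and 2 in the DMSO libraries, and CXCL11 80 and 0. The peptide transporter gene TAP1 rose in 5 lines, by 0.90 ± 0.059 in HT1376, 0.63 ± 0.082 in KU1919 and 0.30 ± 0.046 in TCCSUP, and fell by 0.11 ± 0.046 in SW780. Its VMCUB call was lost without any 1 library but DMSO replicate 2.

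The level in DMSO differed between lines for all 39 members by the F test over the 8 lines, as it did for 97.5% of all genes. HT1197 had the highest level of 19 members and TCCSUP of 12, while VMCUB had the lowest of 13 and KU1919 of 12. TCCSUP was among the 3 highest lines for 37 members, HT1376 for 28 and HT1197 for 27, and VMCUB for 0. Members under 1 CPM numbered 9 in KU1919, 8 in VMCUB, 7 in 639V and 6 in SW780, and 0 in the other 4 lines. How often each line held these ranks over all genes was not counted, so these numbers describe the members only. Between TCCSUP and VMCUB, all 39 members were higher in TCCSUP, where 37.3% of all genes were. Between HT1197 and TCCSUP 19 were higher and 16 lower in HT1197, beside 36.5% and 37.2% of all genes, so the 2 lines with the highest levels did not order one above the other.

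**Figure D5:**
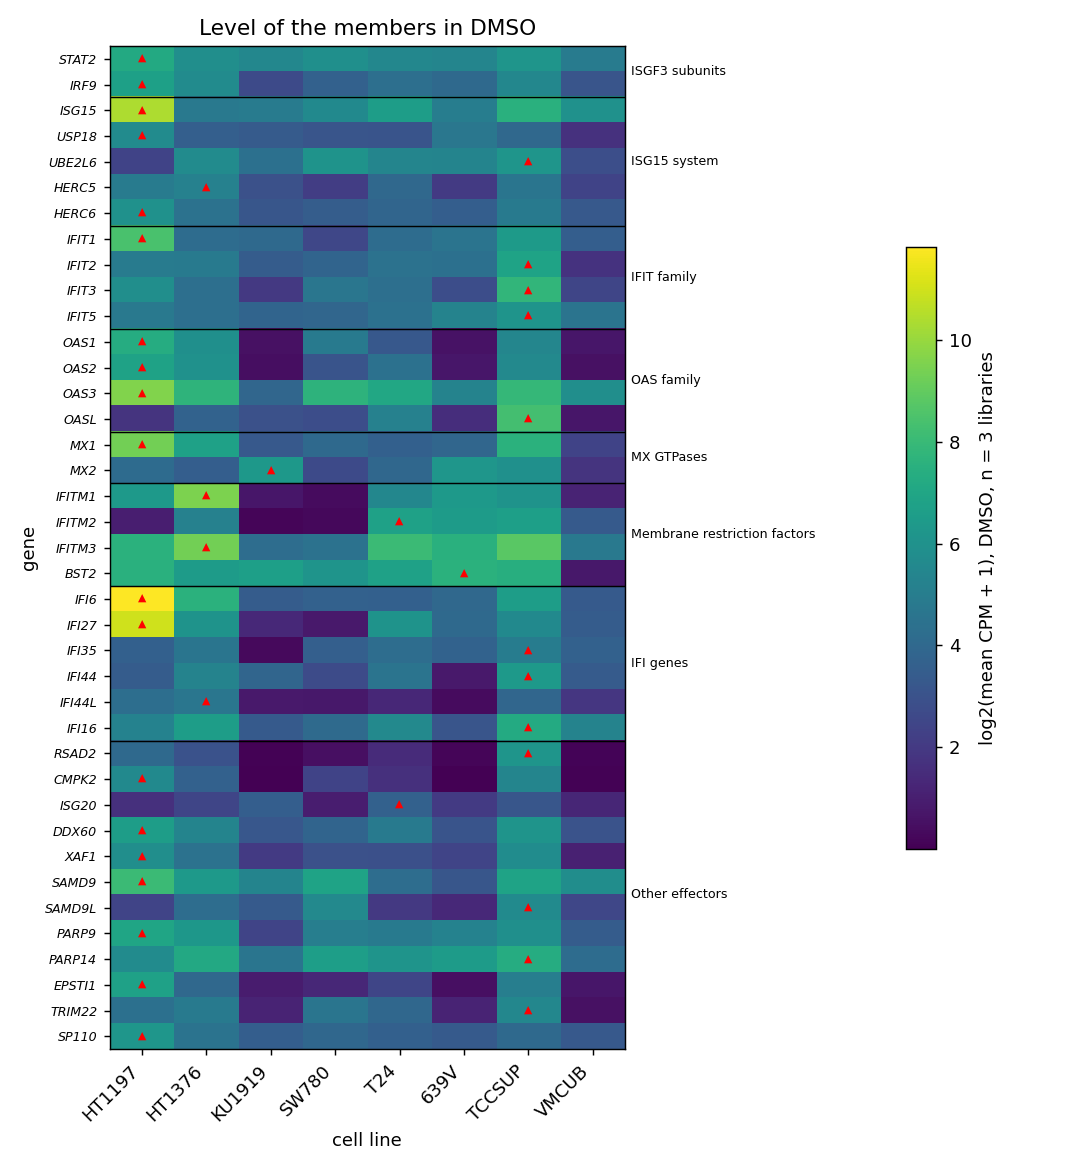
Level of the 39 members (vertical axis, grouped by role) in the DMSO libraries of the 8 lines (horizontal axis), as log2(mean CPM + 1) of 3 libraries, with a triangle at the line where the member was highest. Of the triangles, 19 lie in HT1197 and 12 in TCCSUP.

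IFI6 stood at 3639 ± 211 CPM in HT1197, 189 ± 46.5 CPM in HT1376 and 95.2 ± 17.0 CPM in TCCSUP (SD, n = 3 each), each called apart from the next, with edgeR adjusted p of 2.21e-16, 9.75e-07 and 5.04e-13. The other 5 lines lay between 9.41 and 14.9 CPM, and no neighbour in that order passed the test. IFI27 and ISG15 were likewise at 1989.9 ± 123 and 1312 ± 118 CPM in HT1197, against 67.7 ± 19.1 CPM in HT1376 for IFI27 and 180.0 ± 23.2 CPM in TCCSUP for ISG15, the next lines. IFI27 was lowest in SW780 (0.787 ± 0.0460 CPM), and ISG15 in HT1376 (26.4 ± 9.28 CPM), where it did not differ from KU1919 (29.8 ± 1.81 CPM) or KU1919 from 639V (31.9 ± 3.83 CPM). HT1376 thus ranked second for IFI27, where it did not differ from T24 (edgeR adjusted p = 0.656), and last for ISG15.

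OAS1 was at 161 ± 5.39 CPM in HT1197, 58.8 ± 13.5 in HT1376, 42.2 ± 5.16 in TCCSUP, 28.7 ± 0.581 in SW780 and 8.59 ± 0.629 in T24, each apart from the next (edgeR adjusted p of 0.000216 or less). In VMCUB (0.674 ± 0.0515 CPM), 639V (0.499 ± 0.0557 CPM) and KU1919 (0.456 ± 0.0598 CPM) it lay under 1 CPM with no difference between neighbours that passed the test, and KU1919, the lowest, had the largest rise with CPI-0209. EPSTI1 ran from 108 ± 1.17 CPM in HT1197 to 0.390 ± 0.0321 CPM in 639V and PARP9 from 125 ± 2.74 CPM in HT1197 to 4.48 ± 0.201 CPM in KU1919. IFITM1 was led by HT1376, at 723 ± 106 CPM against 85.1 ± 6.90 CPM in HT1197, and was at 0.270 ± 0.135 CPM in SW780. IFI16 was led by TCCSUP (152 ± 9.90 CPM), ahead of HT1376 (95.4 ± 4.78 CPM) and T24 (46.6 ± 1.46 CPM), with 639V the lowest (7.74 ± 0.362 CPM). The leading line therefore changed with the member.

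STAT2 kept within a narrower range, from 145 ± 5.37 CPM in HT1197 to 29.1 ± 2.66 CPM in VMCUB, than IRF9, from 104 ± 3.86 to 5.42 ± 0.101 CPM in KU1919. MX1 fell into 3 lines above 100 CPM, HT1197 (629 ± 25.2), TCCSUP (189.7 ± 8.17) and HT1376 (109 ± 36.6), and 5 between 4.26 and 15.5 CPM. RSAD2 was at 70.5 ± 1.71 CPM in TCCSUP and 15.4 ± 0.680 CPM in HT1197, and under 1 CPM in SW780, 639V, VMCUB and KU1919. Summed over the 39 members, the CPM were 6275 ± 92.5 with CPI-0209 and 3739 ± 169 with DMSO in TCCSUP, and 10775 ± 584 with CPI-0209 and 10888 ± 547 with DMSO in HT1197 (SD, n = 3 each). The sums of TCCSUP were thus below those of HT1197 in both treatments.

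Over the 8 lines, the median Spearman rho between pairs of members was 0.524 for the DMSO level of all 39 and 0.381 for the response of the 35 members tested in every line. The share of pairs above 0 was 91.5% for levels and 85.7% for responses. The 8 points of each pair share their libraries and scaling, and these values are a description only.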

How the data were processed

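RNA-seq libraries of 8 cell lines with CPI-0209 or DMSO were analysed as deposited. The authors' table holds whole-number gene counts that name Ensembl genes. Per the submitters' processing notes, STAR 2.7.3a, RSEM 1.3.1 and hg38 were used. The sources do not give how RSEM's estimates became whole counts or whether strand was used. Totals were 26481418 to 50916911 per library. Groups came from the labels. Symbols came from a gene name table, then GENCODE release 29.

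Counts were fitted with edgeR 4.0.16 (R 4.3.3): TMM scaling, filterByExpr at a minimum count of 10, robust quasi-likelihood fit, Benjamini-Hochberg adjustment over all genes tested, called under 0.05. Each line was fitted alone; a shared response used counts summed by group with line as a term; differences between lines and DMSO levels used 1 fit of all libraries concerned. The steps were checked on simulated data. Alternatives were DESeq2 1.42.0, RLE or library totals, no filter, 1 fit, a replicate block and leaving out libraries or lines.

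The members and lists were chosen with earlier results of these data known. Named members were, per line, the 5 higher and 3 lower called members of smallest p at 1 CPM or more with groups apart, the 4, 8 and 6 of smallest p in the shared, difference and DMSO tests, and STAT2, IRF9, ISG15, IFI27, IFI6 and USP18. Pathway genes were taken by smallest p within a list in at least 1 line, besides IRF1, IRF7, IFNAR1 and IFNB1, and other members were named after their values were seen. A few genes of these lists are not reported here.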

Additional observations from a re-analysis of the deposited data

Results flagged for a closer look

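The following values stand out because the response to CPI-0209 was tested to differ between lines. The interaction F test passed for 38 of 39 members, where 58.7% of all genes passed. The response was higher in TCCSUP than the mean of the other 7 lines for 27 members and lower for 4, beside 9.1% and 11.7% of all genes. In VMCUB it was higher for 11 and lower for 2, beside 10.8% and 14.4% of all genes. The share of members that responded less did not exceed the share of all genes in either line. The 8 smallest edgeR adjusted p of the interaction test were 1.76e-15 for OAS1, 8.71e-13 for IFI44L, 1.42e-12 for IFI6, 2.36e-12 for UBE2L6, 3.91e-12 for IFI27, 1.55e-11 for RSAD2, 3.18e-11 for IFI16 and 7.16e-11 for IFIT2. The lines with the most positive response were KU1919 for OAS1, TCCSUP for IFI44L, IFI6 and IFI27, VMCUB for UBE2L6 and IFIT2, 639V for RSAD2 and SW780 for IFI16.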

How the results depend on the processing

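RLE size factors moved none of the member counts by over 1.5 times. With library totals the higher members of HT1197 were 5 and the lower members of SW780 were 7, 2 members were called higher in the shared response, and the log2 fold changes of IRF3 (0.0013, edgeR adjusted p = 0.981) and TYK2 (0.0047, edgeR adjusted p = 0.937) in SW780 were above 0, where both were -0.20 with TMM. Without the filter on low counts the higher members of HT1376 were 4. DESeq2 called 7 lower in T24 and 6 higher in the shared response. One fit of all 48 libraries gave 0 higher and 0 lower in HT1197, 13 and 3 in HT1376, 7 and 5 in KU1919 and 5 and 5 in 639V, with 7 lower in SW780 and 8 lower in T24. Taking all 48 libraries as independent gave 21 higher and 2 lower in the shared response, and 18 and 1 with a replicate block. For the shared response the share of all genes called was not counted in these settings, so its counts describe the members only. The cause of these shifts was not tested.

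Same-numbered CPI-0209 and DMSO libraries had a correlation of deviations over 0.1 for all 3 numbers in none of the 8 lines, and the main fits did not pair them. In T24 the values for numbers 1, 2 and 3 were 0.30, -0.62 and -0.52. With 3 libraries a group, such values cannot tell whether same-numbered libraries shared a culture or a day. With the replicate block the higher members of HT1376 were 2, those of T24 were 1 higher and 0 lower, and 1 member responded less in VMCUB than in the other lines.

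Leaving out 1 library gave 1 to 3 higher and 2 to 6 lower members in HT1197, 2 to 15 and 1 to 5 in HT1376, 1 to 7 and 1 to 10 in KU1919, 1 to 2 and 0 to 6 in T24, and 0 to 1 lower in VMCUB. The numbers of all genes called moved in these settings as well. Without 1 replicate number, 2 to 3 members responded less in TCCSUP and 0 to 2 in VMCUB than in the other lines. Of the named members called, 14 of 14 in SW780, 12 of 13 in TCCSUP, 8 of 10 in 639V, 6 of 8 in VMCUB, 3 of 6 in HT1197, 2 of 6 in HT1376, 2 of 6 in KU1919 and 1 of 5 in T24 kept their call without any 1 library. Members under 1 CPM rest on few counts, and 3 libraries a group limit the precision of the small changes in HT1197, HT1376, KU1919 and T24.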
